A study of Mus musculus with 18 samples.

Results

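The 33 genes described here encode glucose and lactate transporters, the enzymes that turn glucose into lactate, and the kinases that switch off pyruvate dehydrogenase. They also encode the hypoxia-inducible factor (HIF) system, which controls many of the 33. They were chosen by name from pathway knowledge, with earlier results of these data known, and all 33 were found by symbol among the 24421 genes counted in 18 RNA-sequencing libraries. All 33 also passed the filter on low counts, in the cultured cells (13169 genes tested) and in the sorted cells (14605 genes tested). RNA was sequenced from mouse bone marrow (BM) mesenchymal stromal cells (MSCs), in which loss of Pot1a, a subunit of the shelterin complex that protects telomeres, was studied.

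In the cultured experiment, MSCs from mice aged 4 to 6 months, which carried either wild-type or floxed Pot1a together with a Cre-dependent tdTomato reporter, were sorted as CD51+ PDGFRα+ cells and grown in a low-oxygen incubator. Every culture, controls included, received Cre protein vesicles (10 µL per well for 12 h), and tdTomato+ cells were sorted again after 48 h. Libraries were made 1 week or 4 weeks later, with 3 libraries in each of 4 groups, called here wt/wt and Δ/Δ at week 1 and at week 4. In the sorted experiment, tdTomato+ BM cells were taken directly from mice aged 2 weeks that carried NG2-cre, which is active in pericytes and other stromal cells, and a tdTomato reporter. Its 3 wt/Δ and 3 Δ/Δ libraries were grouped by their titles, because the genotype label gives all 6 as floxed homozygotes. The labels do not tie a replicate number to a particular animal, so p-values measure the spread between libraries.

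Library depth was 12807832 to 90717232 counts in culture and 28918757 to 49992698 in the sorted cells. Pot1a itself, the targeted gene, was at 34.3, 33.8 and 36.6 CPM (counts scaled to a common library size) in wt/wt and 31.1, 37.9 and 34.6 in Δ/Δ libraries at week 1. At week 4 it was at 37.8, 33.7 and 33.2 CPM in wt/wt and 47.9, 46.3 and 42.8 in Δ/Δ libraries, and in the sorted cells at 26.9, 30.0 and 34.3 CPM in wt/Δ and 30.8, 19.1 and 31.0 in Δ/Δ. It was called higher in Δ/Δ libraries at week 4 (edgeR log2 fold change 0.39 ± 0.11, SE, adjusted p = 0.0298, a call lost in 9 of 20 alternative analyses) and passed in no other genotype comparison. Which of the counted exons the deletion removes was not analysed here, so the label is not checked by this gene, and Δ/Δ means "labelled Δ/Δ" throughout. The cultured cells held the stromal markers (4588 to 19217 CPM summed), while their summed endothelial markers stayed at or below 6.77 CPM and summed myeloid markers at or below 19.8 CPM. Of the B cell markers, Ebf1, which stromal cells also express, was at 147 to 420 CPM in culture, with Cd79b and Pax5 at 0. The sorted cells held stromal markers (13338 to 36321 CPM summed) and also endothelial (944 to 1619 CPM summed), myeloid (1515 to 3221 CPM) and, in wt/Δ replicate 2 (1689 CPM) and Δ/Δ replicate 3 (847 CPM), megakaryocyte markers, which were at 17.6 to 27.3 CPM in the other sorted libraries. Summed osteoblast markers there were at 22343 to 43705 CPM and adipocyte markers at 1369 to 5827 CPM. Erythroid markers summed to 236 to 422 CPM and B cell markers, Ebf1 included, to 235 to 375 CPM.

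Glycolysis splits glucose into pyruvate in the cytosol. Lactate dehydrogenase then turns pyruvate into lactate, which monocarboxylate transporters carry across the membrane. Alternatively, pyruvate is used inside the mitochondria by pyruvate dehydrogenase, which the PDK kinases switch off. At low oxygen the prolyl hydroxylases EGLN1 and EGLN3 work less, HIF-1α and HIF-2α are degraded less, and with ARNT they bind short sequences with the core ACGTG or GCGTG beside their target genes. Stromal cells of the BM live at low oxygen and are known for a strongly glycolytic metabolism, while osteoblasts are also heavy users of glucose.

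The promoters below are shown because HIF binding at this core links many of the members. Of the 33 members, 31 had a promoter in the RefSeq table of build GRCm38.p6, with no entry for Slc2a3 and Epas1. The core ACGTG or GCGTG, on either strand (so also CACGT and CACGC, with overlapping matches joined), was in the 250 bases before the start of 28 of these 31 genes, 90.3%. Among the genes tested in culture the share was 61.3%, and for all promoters listed there 41.5%. With the 50 bases after the start included, the shares were 90.3%, 67.5% and 46.7%. A gene with more than 1 window counted if any of them held a match. Per window of the 250 bases before the start, the shares were 80.0% of 45, 55.1% of 12781 and 38.6% of 32851 windows. The median share of G and C was 60.4% in the members' windows, 60% in those of the tested genes and 52.4% in all windows, and such a match is a description, not a site known to be bound. Gpi1, Eno2 and Tpi1 held no match in this window. The 250 bases before the start are given 5′ to 3′ for 2 members that rose at week 4 (Ldhb, Egln3), 3 that fell (Slc16a1, Slc16a3, Pdk1) and for Ldha, the member with the highest measured level per length, with the matches in capitals. Pdk1 and Ldha each have a second window in the table, with 0 matches for Pdk1 and 1 for Ldha, and the more upstream window is shown.
Ldhb (chr6:142507958-142508207, minus strand): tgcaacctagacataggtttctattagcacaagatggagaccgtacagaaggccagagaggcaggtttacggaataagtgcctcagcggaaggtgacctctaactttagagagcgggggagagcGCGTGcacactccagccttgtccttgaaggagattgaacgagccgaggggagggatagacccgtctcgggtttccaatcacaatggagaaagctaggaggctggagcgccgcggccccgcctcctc
Egln3 (chr12:54203875-54204124, minus strand): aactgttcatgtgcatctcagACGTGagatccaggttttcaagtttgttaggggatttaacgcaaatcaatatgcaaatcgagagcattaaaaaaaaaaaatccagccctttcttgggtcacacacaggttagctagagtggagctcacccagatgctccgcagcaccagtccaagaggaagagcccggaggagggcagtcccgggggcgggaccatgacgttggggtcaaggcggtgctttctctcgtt
Slc16a1 (chr3:104638414-104638663, plus strand): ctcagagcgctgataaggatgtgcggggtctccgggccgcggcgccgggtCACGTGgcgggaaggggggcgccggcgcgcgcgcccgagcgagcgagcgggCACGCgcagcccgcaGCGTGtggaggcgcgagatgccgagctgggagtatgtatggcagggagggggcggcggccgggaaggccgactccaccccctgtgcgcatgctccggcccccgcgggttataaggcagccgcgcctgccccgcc
Slc16a3 (chr11:120948817-120949066, plus strand): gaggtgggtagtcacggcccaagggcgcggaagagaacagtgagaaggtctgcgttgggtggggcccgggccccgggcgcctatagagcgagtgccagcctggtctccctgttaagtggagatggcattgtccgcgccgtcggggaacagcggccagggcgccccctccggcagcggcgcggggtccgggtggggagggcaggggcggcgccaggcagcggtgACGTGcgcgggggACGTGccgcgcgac
Pdk1 (chr2:71872974-71873223, plus strand): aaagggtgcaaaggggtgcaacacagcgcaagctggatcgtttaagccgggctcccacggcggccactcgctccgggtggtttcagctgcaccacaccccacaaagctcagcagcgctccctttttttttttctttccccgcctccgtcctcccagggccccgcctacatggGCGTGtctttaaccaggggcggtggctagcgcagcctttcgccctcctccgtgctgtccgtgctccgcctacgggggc
Ldha (chr7:46845554-46845803, plus strand): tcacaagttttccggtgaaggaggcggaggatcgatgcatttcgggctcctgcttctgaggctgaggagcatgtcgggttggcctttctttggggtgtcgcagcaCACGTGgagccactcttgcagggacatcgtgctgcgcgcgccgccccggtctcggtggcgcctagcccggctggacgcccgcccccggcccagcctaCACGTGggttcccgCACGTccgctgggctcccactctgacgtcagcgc
Ldhb held 1 match, which began 126 bases before the start, and Egln3 1, at 229 bases. Slc16a1 held 3 and Slc16a3 2, the latter 27 and 14 bases from the start. The core was thus in the windows shown for members that rose and for members that fell.

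Per kilobase of annotated exon, the order of the members was led by the same 4 genes in all 6 groups. This order, and the summed level of the enzymes, are affected by counting, since reads of genes with near-identical copies can be lost: 80.3% of the 75-base stretches of the Gapdh transcript, 67.5% of Pgk1 and 65.4% of Eno1 occur in other annotated transcripts. Ldha, the muscle-type subunit of lactate dehydrogenase, stood first with 1593 ± 62 CPM per kb (SD, n = 3) in wt/wt at week 1 and 956 ± 87.5 at week 4. Aldoa, the main aldolase, followed with 829 ± 42.6 and 589 ± 51.5, Pkm, pyruvate kinase, with 538 ± 43.6 and 391 ± 52.8, and Tpi1, triose phosphate isomerase, with 412 ± 54.5 and 242 ± 36.4 CPM per kb. In the sorted cells the level of Ldha was 320 ± 95.1 CPM per kb in wt/Δ and 264 ± 30.5 in Δ/Δ, and that of Aldoa in wt/Δ, 265 ± 103, was not separated from it by more than this spread. Car9, a membrane carbonic anhydrase often used as a hypoxia marker, was at 0.723 CPM per kb in wt/wt at week 1 and 0.154 in sorted wt/Δ cells. Eno1, the main enolase, stood beside it at 0.713 CPM per kb in wt/wt at week 1, a value that its shared sequence makes doubtful. The summed CPM of the 17 enzymes of the pathway, including Ldha and Ldhb, was 15224 ± 636 in wt/wt and 14320 ± 544 in Δ/Δ at week 1. At week 4 it was 10057 ± 236 and 8158 ± 512, and the 3 Δ/Δ libraries (7570 to 8501) were all below the 3 wt/wt libraries (9792 to 10244). Groups did not overlap at week 4 for 27.4% of single tested genes. The largest parts of the sum were Ldha (mean 3166 CPM in wt/wt and 2572 in Δ/Δ), Pkm (1954 and 1174) and Aldoa (1714 and 1489). Of these, edgeR called only Pkm lower, so the sum does not show a fall of every enzyme. In the sorted cells the sum was 3672 ± 692 in wt/Δ and 3174 ± 147 in Δ/Δ, with overlapping ranges. Because these are bulk samples, fewer cells of a type and less RNA per cell cannot be told apart in any of these values.

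At week 1 no member passed the test between Δ/Δ and wt/wt cells, against a background of 1.02% of all tested genes, 0.752% higher and 0.266% lower (edgeR's quasi-likelihood test, Benjamini-Hochberg adjusted p below 0.05, as in all comparisons here). In all, 1570 of the 13169 genes had an unadjusted p below 0.05 in this test. DESeq2 called 453 of the 13169 genes, of which 1 was a member, Aldoc. The median log2 fold change of the members was -0.05, with a range from -0.44 to 0.63, and that of all tested genes was 0.00. The nearest to the threshold was Aldoc, the aldolase isoform known from brain, at 14.3, 15.5 and 12.3 CPM in wt/wt and 20.1, 22.5 and 22.4 in Δ/Δ libraries. All 3 Δ/Δ values lay above the wt/wt values, and the log2 fold change was 0.63 ± 0.14 (SE; adjusted p = 0.0571). Groups did not overlap for 6 members, 2 with the Δ/Δ libraries higher and 4 lower, against 22.6% of all tested genes. 

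At week 4, 10 members passed the test: 4 were higher in Δ/Δ cells, against a background of 9.2% of all genes called higher, and 6 were lower, against 6.46% (15.7% in either direction). The members' median log2 fold change was -0.16, that of all tested genes 0.00, and 23 of the 33 fold changes were negative. Groups did not overlap for 14 members, 4 with the Δ/Δ libraries higher and 10 lower, against 27.4% of all tested genes. Of the members past the test, those that rose were Epas1, Ldhb, Egln3 and Pdk4, and those that fell were Aldoc, Pfkfb4, Pkm, Slc16a1, Slc16a3 and Pdk1. They are described below by role, from glucose uptake to the HIF genes.

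**Figure D1:**
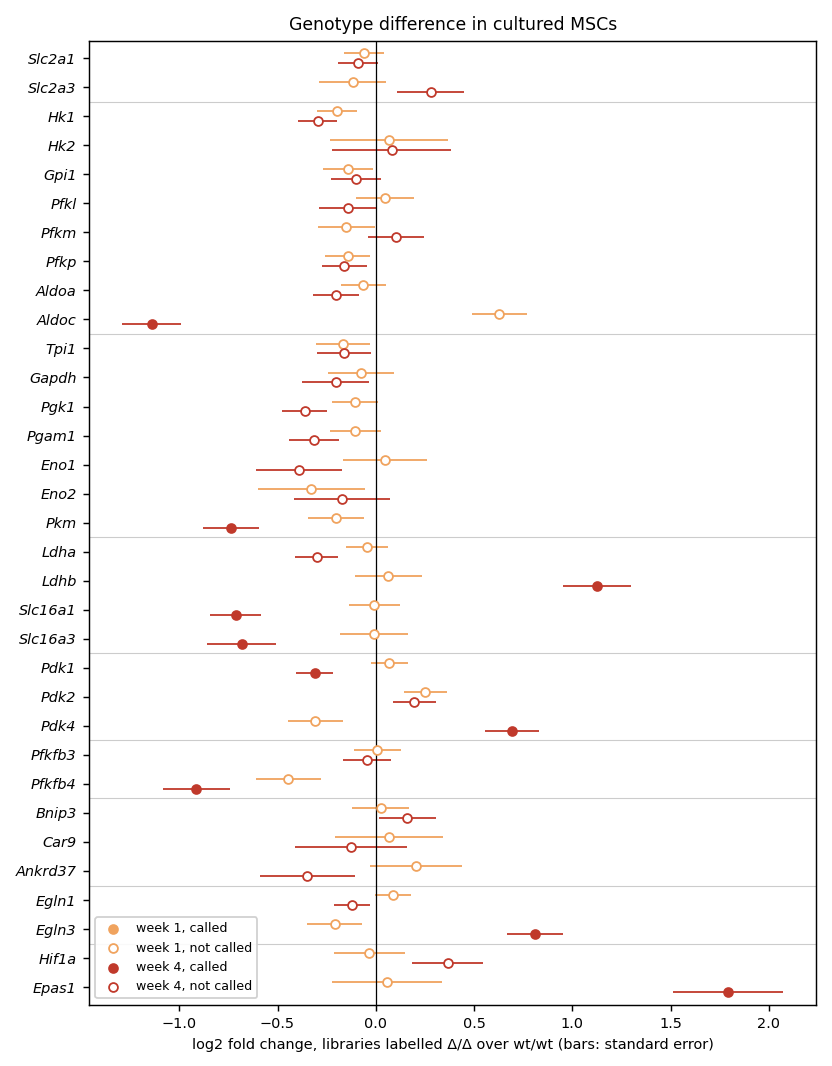
log2 fold change of each of the 33 members between cultured cells labelled Δ/Δ and wt/wt (x axis; bars are the standard error), at week 1 (orange) and week 4 (red), with filled points past the test and grey lines between roles. No week 1 point is filled, and 10 week 4 points are, from Epas1 at 1.79 to Aldoc at -1.14.

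In glucose uptake and the upper part of the pathway, calls were few. Slc2a1, which encodes the widespread glucose transporter GLUT1, was at 113, 128 and 141 CPM in wt/wt and 117, 120 and 121 in Δ/Δ libraries at week 4. These values overlapped, with a log2 fold change of -0.09 ± 0.10 (adjusted p = 0.65). Slc2a3, encoding GLUT3, and the hexokinases Hk1 and Hk2, the isomerase Gpi1 and the phosphofructokinases Pfkl, Pfkm and Pfkp did not pass either, with log2 fold changes from -0.30 (Hk1) to 0.28 (Slc2a3). The groups of Hk1 did not overlap (268 to 304 CPM in wt/wt and 215 to 246 in Δ/Δ libraries), and DESeq2 called it lower. Aldoc was the upper enzyme that passed the test. It was at 7.92, 6.82 and 6.63 CPM in wt/wt and 2.75, 3.21 and 3.61 in Δ/Δ libraries, which did not overlap, and it fell by 1.14 ± 0.15 on the log2 scale (adjusted p = 0.000205). Its level is low, so that Aldoc made up 0.369% ± 0.0171 of the aldolase CPM per kb in wt/wt and 0.192% ± 0.0342 in Δ/Δ cells (SD, n = 3), while Aldoa did not pass the test (-0.20 ± 0.12, adjusted p = 0.298).

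Of the 7 lower enzymes, all had negative fold changes at week 4 and only Pkm passed the test. Pkm, which encodes the pyruvate kinase of most tissues and makes the pyruvate of the last step, was at 2251, 1868 and 1745 CPM in wt/wt and 1351, 960 and 1210 in Δ/Δ libraries. The highest Δ/Δ library was below the lowest wt/wt library, and Pkm fell by 0.74 ± 0.14 on the log2 scale, to 0.601 times the wt/wt level (adjusted p = 0.0035). The groups of Pgk1 (phosphoglycerate kinase, -0.36 ± 0.12, adjusted p = 0.0521, called lower by DESeq2) and Pgam1 (phosphoglycerate mutase, -0.31 ± 0.13, adjusted p = 0.132) also did not overlap, without passing. Besides Gapdh, Pgk1 and Eno1, shared stretches make the counts of Pgam1 (40.6%) and Pkm (19.6%) uncertain.

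Of the lactate dehydrogenase subunits, Ldhb rose at week 4. Ldha, at 2848, 3234 and 3415 CPM in wt/wt and 2538, 2548 and 2628 in Δ/Δ libraries, did not pass (-0.30 ± 0.11, adjusted p = 0.0869), although its groups did not overlap and DESeq2 called it lower (adjusted p = 0.00861). Ldhb, the heart-type subunit, whose enzyme favours turning lactate back into pyruvate, was at 91.3, 61.5 and 50.5 CPM in wt/wt and 159, 135 and 149 in Δ/Δ libraries. It rose 2.18-fold (log2 fold change 1.13 ± 0.17, adjusted p = 0.000641). Of the 75-base stretches of the Ldhb transcript, 16.75% occur in another annotated transcript, against 5.23% for Ldha in others. The counts of Ldhb and its share below are therefore less certain. Per kilobase, Ldhb made up 6.33%, 3.85% and 3.02% of the lactate dehydrogenase CPM in the wt/wt libraries at week 4 and 11.7%, 10.0% and 10.6% in the Δ/Δ libraries. At week 1 this share lay between 2.06% and 2.57% in all 6 libraries, so the week 4 Δ/Δ libraries stood apart from the other 9 cultured libraries.

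The lactate carriers were both lower. Slc16a1, encoding the monocarboxylate transporter MCT1, was at 81.9, 85.3 and 109 CPM in wt/wt and 60.6, 59.4 and 48.7 in Δ/Δ libraries and fell by 0.71 ± 0.13 on the log2 scale (adjusted p = 0.00208). Slc16a3, encoding MCT4, a hypoxia-induced exporter of lactate, was at 142, 240 and 219 CPM in wt/wt and 115, 118 and 140 in Δ/Δ libraries. The highest Δ/Δ library, at 140, was just below the lowest wt/wt library, and the fall of 0.68 ± 0.17 (adjusted p = 0.0182) lost the call when wt/wt replicate 2 or 3 or Δ/Δ replicate 1 or 2 of week 4 was left out, or when the 6 week 4 libraries were fitted alone (adjusted p up to 0.0794 over all alternatives).

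**Figure D2:**
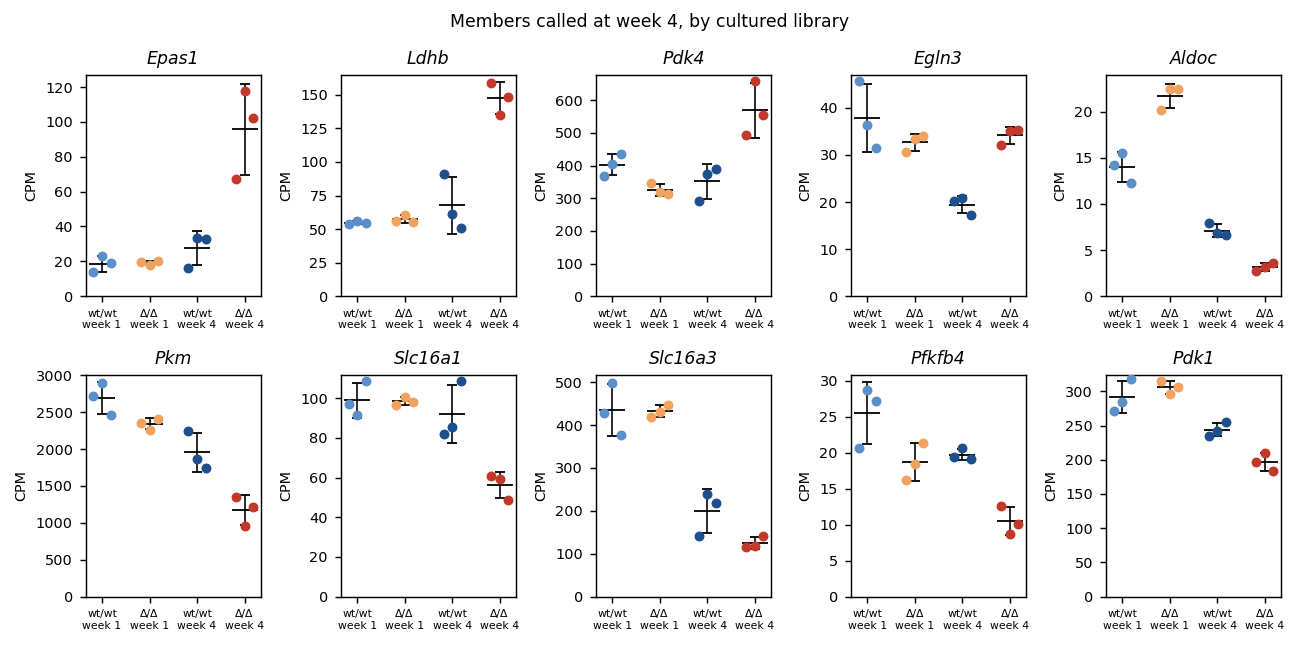
CPM (y axis, starting at 0) of the 10 members called at week 4 in each of the 12 cultured libraries, grouped by genotype and week; black bars are the mean and SD of 3 libraries. In each panel the 3 week 4 Δ/Δ points lie entirely above (Epas1, Ldhb, Pdk4, Egln3) or below (the other 6) the 3 week 4 wt/wt points. The panels were chosen by the test, which favours such a separation, and 27.4% of all tested genes showed it at week 4.

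The pyruvate dehydrogenase kinases split as well. Pdk4, the isoform known to be induced by fasting and by fatty acid use, was at 290, 375 and 390 CPM in wt/wt and 492, 660 and 554 in Δ/Δ libraries at week 4. It rose 1.62-fold (0.69 ± 0.14, adjusted p = 0.00415). Pdk1, a classical HIF-1 target, was at 235, 242 and 255 CPM in wt/wt and 197, 210 and 183 in Δ/Δ libraries, a fall of 0.31 ± 0.10 on the log2 scale (adjusted p = 0.0452) that lost the call in 13 of 20 alternative analyses. Per kilobase, Pdk4 made up 66.1% ± 3.71 of the 3 kinases in wt/wt and 77.1% ± 2.63 in Δ/Δ cells, and Pdk1 20.9% ± 1.56 and 12.1% ± 1.16. Pdk4 lies on chromosome 6, as Pot1a does, at a distance of 20.3 Mb, and 6 other members, Ldhb among them at 117 Mb, lie on the same chromosome farther away.

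Fructose-2,6-bisphosphate, the strongest activator of phosphofructokinase, is made and broken down by the PFKFB enzymes. Pfkfb3 did not pass the test at week 4 (-0.04 ± 0.12, adjusted p = 0.874). Pfkfb4, a known hypoxia target, was at 19.4, 20.7 and 19.2 CPM in wt/wt and 12.6, 8.74 and 10.0 in Δ/Δ libraries. It fell by 0.91 ± 0.17 on the log2 scale (adjusted p = 0.00255), and its level in Δ/Δ libraries was the lowest of the 4 cultured groups.

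Within the HIF system itself, Epas1 showed the highest fold change of all members. Epas1 encodes HIF-2α and was at 16.1, 33.2 and 33 CPM in wt/wt and 67.2, 118 and 102 in Δ/Δ libraries at week 4. The lowest Δ/Δ library was above the highest wt/wt library, and Epas1 rose 3.47-fold (1.79 ± 0.28, adjusted p = 0.000746). Hif1a, encoding HIF-1α, was at 671, 570 and 917 CPM in wt/wt and 977, 1034 and 769 in Δ/Δ libraries, which overlapped (0.37 ± 0.18, adjusted p = 0.223). The share of Epas1 in the CPM per kb of both subunits was 2.48%, 5.80% and 3.66% in wt/wt and 6.76%, 10.7% and 12.3% in Δ/Δ libraries, so Hif1a remained the more abundant transcript in every library.

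Egln3, a hydroxylase that is itself a HIF target and marks HIF-α for breakdown, was at 20.2, 20.9 and 17.3 CPM in wt/wt and 32.0, 35 and 35.3 in Δ/Δ libraries at week 4. It rose 1.76-fold (0.81 ± 0.14, adjusted p = 0.00163), whereas Egln1, the main oxygen-sensing isoform, did not pass (-0.12 ± 0.09, adjusted p = 0.456). Of the other hypoxia targets, Bnip3, a mitophagy receptor, Car9 and Ankrd37 did not pass, with log2 fold changes of 0.16, -0.12 and -0.35. Of the Bnip3 transcript, 46.2% of the 75-base stretches occur in other annotated transcripts, so its counts are uncertain.

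Cell type markers moved with genotype at week 4, and their part in these results was not tested. Of 8 osteoblast markers, 7 were lower in Δ/Δ cells, and their summed level was 31067 to 32287 CPM in wt/wt and 13013 to 16853 CPM in Δ/Δ libraries, with no marker at 0 over a group. Of 11 MSC and stromal markers tested, 6 were higher and 2 lower, with a summed level of 7521 to 10081 CPM in wt/wt and 14874 to 19217 CPM in Δ/Δ libraries. Of 5 adipocyte markers tested, 3 were higher (25.7 to 45.9 against 87.0 to 129 CPM summed), and of 5 chondrocyte markers 2 were higher (1257 to 3520 against 1772 to 2401 CPM summed). The skeletal muscle markers summed to 3.23 to 5.32 CPM in wt/wt and 15.0 to 18.2 CPM in Δ/Δ libraries, mostly Acta1, which was called higher, with Myh1, Myh4 and Myod1 at 0 in both groups. None of the 12 cell cycle genes passed between genotypes at week 4. The endothelial markers Cdh5 and Emcn were at 0 in all week 4 libraries, and summed myeloid markers lay at 12.6 to 19.8 CPM.

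For the other genes of these pathways at week 4, counts are to be read against the 9.2% of all genes called higher and the 6.46% called lower. Among 21 further glycolysis genes tested, 4 were higher and 3 lower in Δ/Δ cells, including Pgam2, the muscle phosphoglycerate mutase (1.67), and Slc2a6, a further glucose transporter (-1.58). Slc2a4, the insulin-responsive transporter GLUT4 (1.82), and Fbp1, a gluconeogenic phosphatase (-2.61), were also called, both at or below 1.48 CPM in every week 4 library. Among 45 further hypoxia targets, 5 were higher and 8 lower. Stc1, a secreted glycoprotein, was at 83.4 to 112 CPM in wt/wt and 373 to 452 in Δ/Δ libraries (log2 fold change 2.03), while Ndrg1, a stress-response gene, was at 44.6 to 93.1 and 6.66 to 10.8 CPM (-2.85), and Car12, another membrane carbonic anhydrase, at 21.0 to 31.8 and 0.296 to 0.634 CPM (-5.56). Rcor2, a transcriptional corepressor, was lower as well (-1.32). Of 16 HIF pathway regulators, Arnt2, a relative of the HIF partner ARNT (-1.15), and Siah2, a ubiquitin ligase for EGLN proteins (-0.46), were lower and none was higher, 12.5% in all against 15.7% of all genes. In the pentose phosphate pathway, which branches from glycolysis to make NADPH, 2 of 7 genes were higher, G6pdx (0.59) and H6pd (0.72), and in glycogen metabolism 2 of 16, the phosphorylases Pygm (1.75) and Pygl (0.38), the latter list again at 12.5%. None of the 27 genes of pyruvate dehydrogenase and the citric acid cycle passed the test, and their median log2 fold change was -0.08. At week 1 none of the genes on these lists passed.

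The genotype difference itself changed between week 1 and week 4 for 6 members, by the interaction term of the fit: 4 were higher at week 4 than at week 1, against 4.08% of all genes, and 2 lower, against 3.08% (7.15% in either direction). They were Epas1 (difference of log2 fold changes 1.74 ± 0.39, adjusted p = 0.0168), Ldhb (1.06 ± 0.24, adjusted p = 0.0176), Egln3 (1.02 ± 0.20, adjusted p = 0.00683), Pdk4 (1.00 ± 0.20, adjusted p = 0.00707), Slc16a1 (-0.71 ± 0.18, adjusted p = 0.0332) and Aldoc (-1.77 ± 0.20, adjusted p = 0.000211). Pdk4, Egln3 and Aldoc had opposite signs at the 2 times, but none of them passed at week 1, so a reversal is not shown. For Egln3 the week 1 groups overlapped (31.4 to 45.7 CPM in wt/wt and 30.7 to 34.0 in Δ/Δ libraries). Pdk4 was at 369, 405 and 434 CPM in wt/wt and 346, 318 and 313 in Δ/Δ libraries at week 1, without passing (-0.31 ± 0.14, adjusted p = 0.409), and higher in Δ/Δ at week 4. Pkm (-0.53 ± 0.20, adjusted p = 0.161), Slc16a3, Pfkfb4 and Pdk1 did not pass the interaction test, so for them the week 4 difference is not shown to differ from that at week 1. The call of Slc16a1 was lost when any of 7 libraries was left out and in the fit blocked on replicate (adjusted p at most 0.0829), that of Ldhb without Δ/Δ replicate 3 of week 1 (adjusted p = 0.0587) and that of Epas1 without Δ/Δ replicate 2 of week 1 (adjusted p = 0.0501).

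Over time in culture the calls were mainly towards lower levels. In wt/wt cells 16 members were lower at week 4, against 16.1% of all genes, and 2 were higher, against 17.9% (34% in either direction), and the weeks did not overlap for 19 members, against 43.7%, with a median log2 fold change of -0.38 against -0.01 for all tested genes. In Δ/Δ cells 20 were lower, against 16.3%, and 5 higher, against 18.8% (35.1% in either direction), and the weeks did not overlap for 29, against 51.2%, with a median of -0.60 against 0.00. Same-numbered wt/wt libraries of the 2 weeks deviated together weakly (correlations 0.153, 0.22 and 0.209). With only the 6 wt/wt libraries and no block, 12 members were lower and 2 higher, with 3236 of 12778 tested genes called. With the replicate number as a block in these 6 libraries, 9 members were lower and 2 higher, with 3512 of 12778 genes called. Those 9 were Aldoc, Egln3, Gpi1, Ldha, Pfkp, Pgk1, Slc16a3, Slc2a1 and Tpi1.

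Slc2a1 fell in both genotypes from week 1 to week 4, from 249, 217 and 226 CPM to 113, 128 and 141 in wt/wt libraries and from 235, 211 and 218 to 117, 120 and 121 in Δ/Δ libraries. The log2 fold changes were -0.86 ± 0.10 and -0.89 ± 0.10 (adjusted p = 4.85e-05 and 4.06e-05). Ldha fell by 0.74 ± 0.11 in wt/wt and 0.99 ± 0.11 in Δ/Δ cells, starting from 5038 to 5418 CPM in wt/wt and 4849 to 5274 CPM in Δ/Δ libraries. Slc16a3 fell by 1.12 ± 0.18 and 1.79 ± 0.18, starting from 377 to 498 CPM. These are the main importer of glucose, the main lactate dehydrogenase and a main exporter of lactate, and for all of them the groups did not overlap between the weeks.

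A few members went against this course. Eno2, the enolase known from neurons, rose in both genotypes (1.08 ± 0.26 and 1.24 ± 0.26), from 1.15 to 2.34 CPM at week 1 to 2.85 to 5.29 CPM at week 4, and so did Pdk2 (0.63 ± 0.11 and 0.58 ± 0.11). Epas1 (2.31 ± 0.29), Ldhb (1.36 ± 0.17) and Pdk4 (0.80 ± 0.14) rose in Δ/Δ cells, while in wt/wt cells their changes of 0.57, 0.30 and -0.19 did not pass. Egln3 fell by 0.96 ± 0.14 in wt/wt cells (adjusted p = 0.000235), from 45.7, 36.4 and 31.4 CPM to 20.2, 20.9 and 17.3, and in Δ/Δ cells stayed within 30.7 to 35.3 CPM in all 6 libraries (0.06 ± 0.14, adjusted p = 0.769). Aldoc fell by 0.98 ± 0.14 in wt/wt and by 2.75 ± 0.15 in Δ/Δ cells (adjusted p = 1.4e-07). The interaction test given above is the test of these differences. The summed cell cycle genes fell over the same time, from 1240 to 1517 CPM at week 1 to 410 to 573 CPM at week 4, with all 12 called lower in both genotypes. Over this time the summed osteoblast markers went from 14787 to 19660 CPM to 31067 to 32287 CPM in wt/wt libraries (5 of 8 called higher) and from 15459 to 17232 CPM to 13013 to 16853 CPM in Δ/Δ libraries (3 higher, 1 lower). In wt/wt libraries the chondrocyte markers went from 5854 to 7897 CPM to 1257 to 3520 CPM (3 of 5 lower) and the skeletal muscle markers from 57.5 to 87.8 CPM to 3.23 to 5.32 CPM. The part of these markers in the members' course was not tested.

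**Figure D3:**
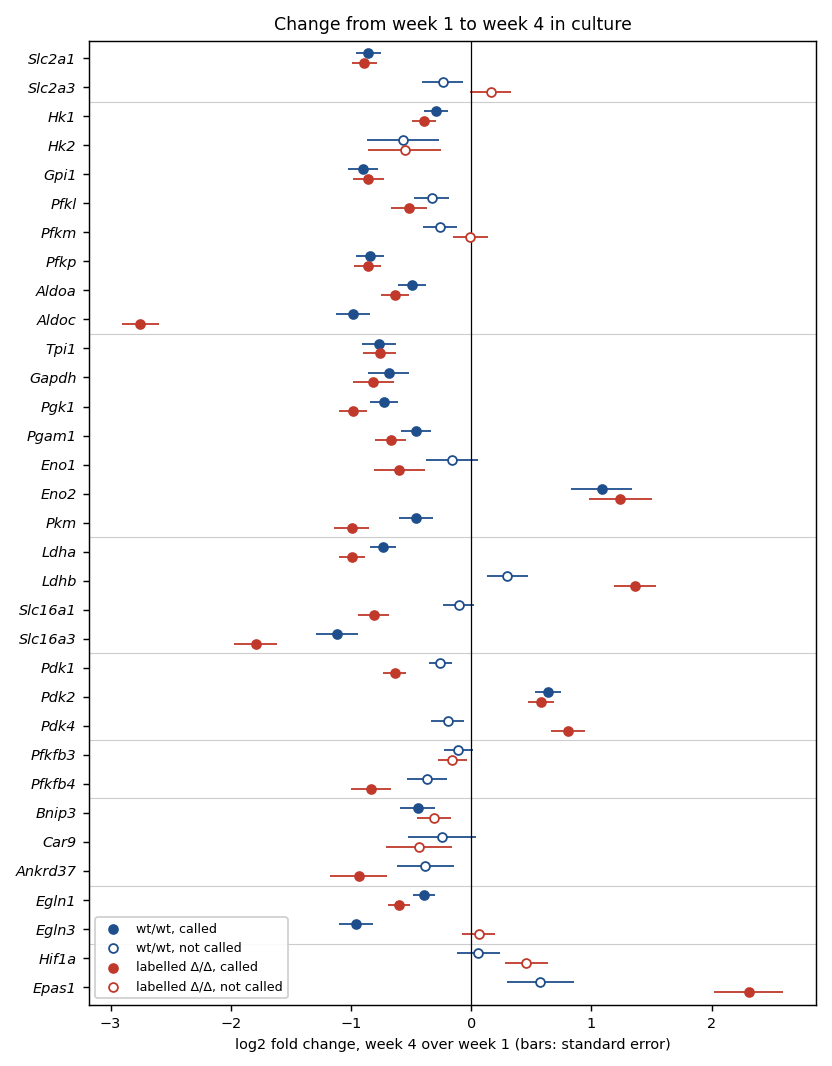
log2 fold change of each member from week 1 to week 4 (x axis; bars are the standard error) in wt/wt (blue) and Δ/Δ (red) cultures, with filled points past the test. Most points lie left of 0 in both genotypes, while Epas1 at 2.31 and Ldhb at 1.36 in Δ/Δ cells lie on the right, and Aldoc reaches -2.75.

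In the sorted cells no member passed the test between Δ/Δ and wt/Δ, and neither did any of the 14605 genes (background 0%). At an unadjusted p below 0.05 there were 1792 genes (1012 without Δ/Δ replicate 1 and 3346 without wt/Δ replicate 3), and DESeq2 called 463, of which 2 were members, Slc16a1 and Pdk4, both higher in Δ/Δ. The members' median log2 fold change was -0.04, that of all genes -0.01, and groups did not overlap for 10 members, 5 higher and 5 lower in Δ/Δ, against 20.5% of all genes. Cell type markers leaned as well, though none passed: all 6 endothelial markers had positive fold changes (median 0.48; 990, 944 and 1548 CPM summed in wt/Δ and 1592, 1511 and 1619 in Δ/Δ libraries), and all 8 megakaryocyte and 7 of 8 osteoblast markers negative ones. The summed megakaryocyte markers were at 27.1, 1689 and 17.6 CPM in wt/Δ and 27.3, 21.8 and 847 in Δ/Δ libraries. Only wt/Δ replicate 2 and Δ/Δ replicate 3 stood apart, so this lean is not a shared difference between the genotypes. The part of the cell type markers in the members' values was not tested.

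Slc16a1 was at 105, 121 and 102 CPM in wt/Δ and 156, 173 and 159 in Δ/Δ libraries, which did not overlap, with a log2 fold change of 0.58 (95% interval 0.23 to 0.93, adjusted p = 0.256). Pdk4 was at 97.3, 71.3 and 62.8 CPM in wt/Δ and 111, 176 and 126 in Δ/Δ libraries (0.83, interval 0.28 to 1.39, adjusted p = 0.27). Aldoc had the fold change farthest from 0, with 112, 97 and 69 counts in the wt/Δ and 12, 29 and 10 in the Δ/Δ libraries (-2.56 ± 0.58, adjusted p = 0.242). These 3 members were the ones with the lowest unadjusted p, and none passed after adjustment. Ldhb was at 165, 98.4 and 110 CPM in wt/Δ and 85.6, 87.8 and 78.7 in Δ/Δ libraries (-0.56, interval -1.06 to -0.07, adjusted p = 0.353).

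Epas1 was at 66.5, 60.6 and 84.8 CPM in wt/Δ and 58.4, 75.1 and 81.8 in Δ/Δ libraries, which overlapped (0.02, interval -0.44 to 0.48, adjusted p = 0.982). That interval does not reach the 1.79 seen in culture at week 4, but the experiments were counted and scaled as separate tables and differ in genotype of the control, age and culture, so the difference was not tested. For Pkm the log2 fold change was -0.04 (interval -0.42 to 0.35), and for Slc16a3, at only 5.24 to 11.8 CPM, 0.01 (interval -0.90 to 0.92). Car9 was at 0, 26 and 16 counts in wt/Δ and 65, 50 and 30 in Δ/Δ libraries, too few for a firm value (1.67 ± 1.12, adjusted p = 0.596).

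**Figure D4:**
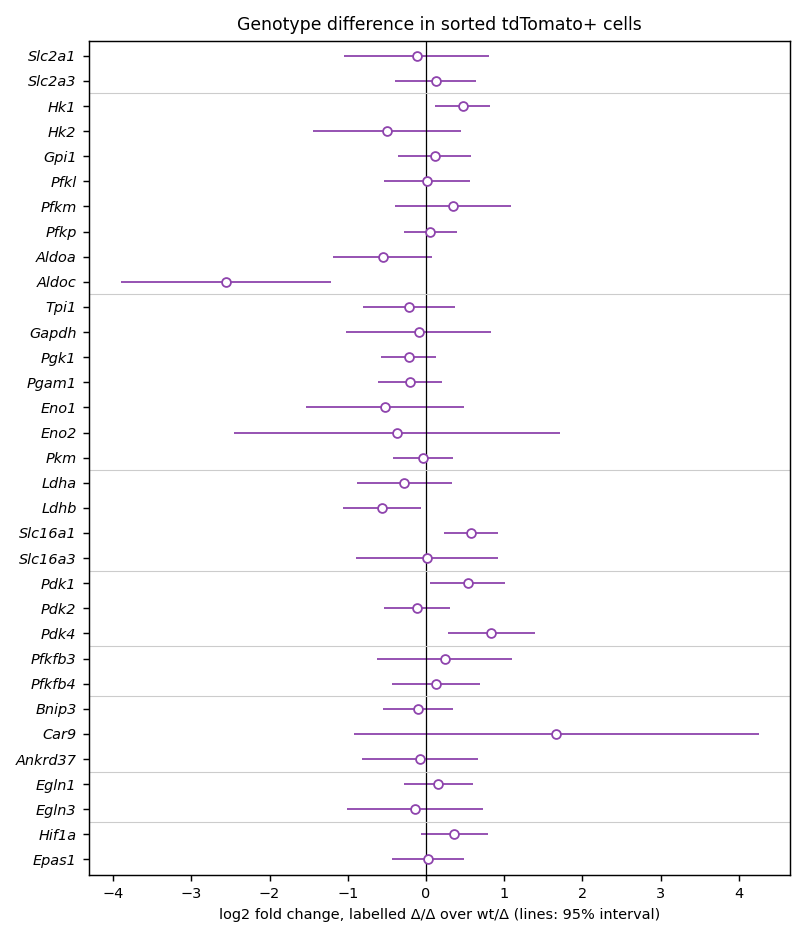
log2 fold change of each member between sorted tdTomato+ cells labelled Δ/Δ and wt/Δ (x axis; lines are the 95% interval), in the order of roles used for the cultured cells. No point is filled because no member passed the test; Aldoc at -2.56 and Slc16a1 at 0.58 are among the members whose interval leaves out 0.

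The isoforms used by sorted and by cultured cells differed in their shares within a library, which do not depend on the scaling between tables. Ldhb made up 15.2% to 24.7% of the lactate dehydrogenase CPM per kb in the 3 wt/Δ sorted libraries, and 3.02% to 6.33% in the wt/wt cultures of week 4. Epas1 made up 19.5% to 20.1% and 2.48% to 5.80% of both HIF-α subunits. MCT4 was the leading lactate carrier in culture and MCT1 in the sorted cells: Slc16a3 made up 63.9% ± 5.62 of both in wt/wt cultures at week 4 and 6.10% ± 1.68 in wt/Δ sorted cells. Slc2a3 made up 5.35% ± 0.948 and 29.5% ± 10.5 of both glucose transporters. The sorted libraries also hold adipocyte, endothelial, myeloid and erythroid markers, whose part in these shares was not tested. Age, culture and gate differ between the experiments as well.

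Within the sorted cells the share of Epas1 was 20%, 19.5% and 20.1% in wt/Δ and 15.1%, 16.8% and 17.2% in Δ/Δ libraries, which did not overlap, although the CPM of Epas1 did. Within the cultures the week 4 Δ/Δ libraries had shares of Ldhb and Epas1 between those of the other cultures and those of the sorted cells.

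**Figure D5:**
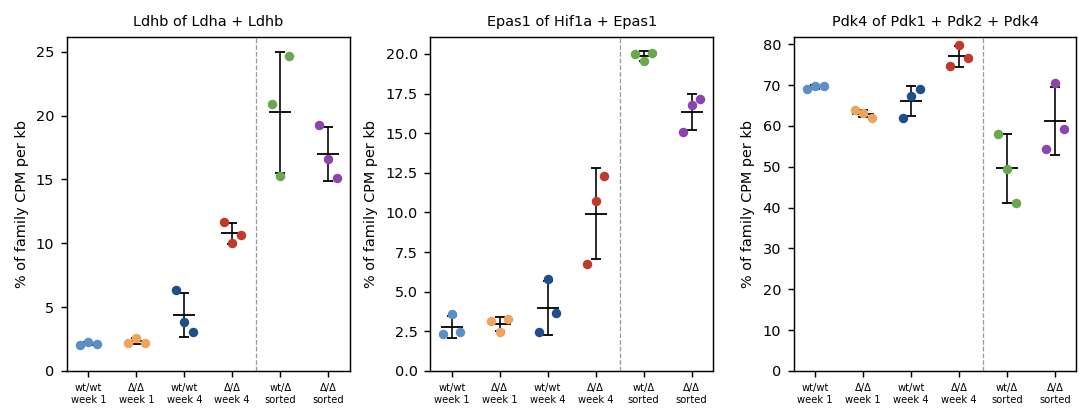
Share of Ldhb, Epas1 and Pdk4 in the CPM per kilobase of their families (y axis, in percent, starting at 0) in each of the 18 libraries, with the cultured groups left and the sorted groups right of the dashed line; black bars are the mean and SD of 3 libraries. For Ldhb the week 4 Δ/Δ cultures, at 10.0% to 11.7%, lie above the other cultures (2.06% to 6.33%) and below all 6 sorted libraries (15.1% to 24.7%). For Pdk4 they lie, at 74.7% to 79.9%, above all other libraries, cultured or sorted (41.2% to 70.4%).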

How the data were processed

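Gene counts were those the authors deposited: reads aligned with HISAT2 2.0.4 and counted per gene with featureCounts 1.6.3, per the labels, on the mouse build mm10. The annotation and the counting options are not given in the sources used here, and the library kit keeps no strand. The deposited values were raw counts in separate tables for cultured and sorted cells. Each table was filtered with edgeR's filterByExpr (minimum count 10), TMM-scaled and fitted with edgeR 4.0.16 (R 4.3.3) by quasi-likelihood, with 12 cultured libraries (4 groups) in 1 model and 6 sorted libraries in another. Adjusted p-values are Benjamini-Hochberg values over all tested genes, called below 0.05, and SE is the log2 fold change divided by the square root of F. CPM are counts divided by the TMM-scaled library size of the tested genes. Levels per kilobase used the exons of GENCODE M21, and promoters came from RefSeq. The fit was tested on simulated counts.

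The members and all gene and marker lists were chosen with earlier results of these data known. All 33 members were reported by role, in full where a genotype comparison or the interaction passed, together with Hif1a, Epas1, Slc2a1, Ldha, Ldhb, Pdk4 and Car9. Of other pathway genes, up to 4 per list with the smallest p were named. Replicates differed by far more than counting noise (chi-square per degree of freedom 10.8 to 381 over 18 pairs), so none was merged. Whether replicate numbers pair libraries was checked by the correlation of their deviations from group means. It was 0.153, 0.22 and 0.209 for the 3 same-numbered wt/wt pairs of week 1 and week 4, and not above 0.1 in every pair of any other comparison. Differently numbered libraries reached 0.486 (wt/wt replicate 3 and Δ/Δ replicate 2 of week 4), so the wt/wt pairing rests on weak correlations. Alternatives were other scalings, filters, DESeq2 1.42.0, a replicate block, fits of 6 libraries alone and leaving out each library.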

Additional observations from a re-analysis of the deposited data

Results flagged for a closer look

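For 6 members there was a genotype difference that changed between week 1 and week 4 of culture by the interaction term of the edgeR fit. The difference of log2 fold changes was 1.74 for Epas1, 1.06 for Ldhb, 1.02 for Egln3, 1.0 for Pdk4, -0.71 for Slc16a1 and -1.77 for Aldoc. The calls of Slc16a1, Ldhb and Epas1 were lost without particular libraries. Groups of 3 were not tested for outlying values.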

How the results depend on the processing

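No called member changed sign in any of the 3727 alternative values over the 6 comparisons, while 81 calls were lost, 39 were gained and 103 values of uncalled members changed sign. At week 4, Epas1, Ldhb, Egln3, Pdk4, Aldoc, Pfkfb4, Pkm and Slc16a1 kept their calls in all 20 alternatives. Leaving out 1 library gave 4 to 5 members higher and 4 to 8 lower at week 4, 0 to 1 higher at week 1, 1 to 3 lower in the interaction, 2 to 3 higher and 14 to 16 lower for time in wt/wt, and 5 to 6 higher and 18 to 22 lower for time in Δ/Δ. Over all genes it gave 49 to 257 calls at week 1 (134 in the analysis reported), 1551 to 2339 at week 4 (2062) and 0 to 4 in the sorted cells, the 4 without wt/Δ replicate 2. For the interaction it gave 647 to 1248 calls over all genes (942), for time in wt/wt 3614 to 4602 (4483) and for time in Δ/Δ 3353 to 5572 (4623). DESeq2 called 1 member (Aldoc) and 453 genes at week 1, 4 members higher and 9 lower at week 4 (Ldha, Hk1 and Pgk1 in addition), and 2 members and 463 genes in the sorted cells. Fitting only the 6 libraries compared called 1 member (Aldoc) and 237 genes at week 1 and 1267 genes at week 4. Requiring 10 counts in every library called 85 genes at week 1. Of the alternatives chosen after seeing the data, leaving out both week 4 libraries numbered 1, which deviated together (correlation 0.636), called 1 member (Aldoc) and 289 genes at week 1, and leaving out the 2 megakaryocyte-rich libraries called 2 genes in the sorted cells. The cause of these differences was not tested.

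With the replicate number as a block, 4 members were higher and 5 lower at week 4 (1909 genes called). In the interaction 1 was lower (Aldoc, against 2 without the block, 886 genes called). For time, 15 were lower in wt/wt (4314 genes called) and 19 in Δ/Δ (4537 genes called). With the block and only the 6 wt/wt libraries, a fit added after seeing the data, 9 were lower (3512 genes called). Only the wt/wt libraries of both weeks met the correlation rule for pairing, with weak correlations, so elsewhere a call lost under the block is not read as a weaker effect. Low counts limited Car9, Aldoc and Eno2, and 3 libraries a group limited the sorted cells, where 95% intervals of the members are wide.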
